A study of Saccharomyces cerevisiae with 32 samples.

Results

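In PDZ3, a ligand-binding domain of the scaffold protein PSD95, the stretch described here is the connection between strand beta4 and helix alpha2, residues 61 to 69 of the assayed domain (PSD95 residues 363 to 371). Members were the listed sequences with no stop codon and exactly 1 changed residue in this stretch, combined with 0 or 1 change in the ligand, an 8-residue peptide from the protein CRIPT. They numbered 25808 of the 251627 sequences in the PDZ3-CRIPT table and of the 470640 sequences in all 4 tables. They comprised 171 single substitutions, which is every one possible at 9 positions, and 25637 pairs, 98.6% of those possible. The choice used positions only and no measured value.

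The study scored growth of yeast strain BY4741 carrying variant libraries, with input cultures grown without drug for 5 generations and output cultures grown for about 5 generations with methotrexate at 200 µg/mL. In this complementation assay, as background, binding of the fusion partners brings together fragments of a drug-resistant dihydrofolate reductase. Growth in the drug is read as binding, and no measurement of the amount of each PDZ3 variant was used here. The PDZ3-CRIPT library was grown in 2 blocks, each with 3 replicate transformations sampled as input and as output. The deposited table held 1 score and 1 error per amino acid sequence, merged over replicates by the authors, so no value per replicate is given, the depth behind a score is unknown, and each ± below is the authors' error or is propagated from it.

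PDZ domains bind the C-terminal end of partner proteins in a groove between strand beta2 and helix alpha2. In many PDZ domains the chain that leaves strand beta4 makes a turn with an Asn-Gly pair, runs through a short strand beta5 and reaches helix alpha2, which begins with a histidine that contacts the ligand's threonine or serine in class I complexes. Here that histidine is H70 (PSD95 H372) and that threonine is T6 of CRIPT, and the stretch studied ends at the residue just before H70.

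Wild type and the members on which the results turn most are shown as the 9 residues from position 61 to position 69, in lower case with the changed residue in capitals. They are the proline substitutions called lower at N61, V63 and L65, the lowest substitution at D64 (D64R, a reversal of charge), 2 substitutions of the position where every change scored higher (R66E, R66V), and the substitution with the highest score (S69E).
wild type: ngvdlrnas
N61P: Pgvdlrnas
V63P: ngPdlrnas
D64R: ngvRlrnas
L65P: ngvdPrnas
R66E: ngvdlEnas
R66V: ngvdlVnas
S69E: ngvdlrnaE

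Scores are growth relative to wild type. Wild type scored -0.000512 ± 0.00383, and stop codons at the 9 positions scored between -0.874 and -0.784. Against this range 158 of 171 substitutions in the stretch lay within 0.1 of wild type. The lowest 5 scores were those of 4 substitutions of L65 and of V63P. Of the substitutions that scored higher than wild type, 32 were at R66 and S69. Each score was compared with wild type by a two-sided normal test on the difference and its combined error, with Benjamini-Hochberg adjustment over every sequence listed for residues 51 to 100 and a threshold of 0.05. By this test 54 of the 171 singles (31.6%) scored higher than wild type, where the background over the 947 singles of residues 51 to 100 was 21.8%. Lower scores were called for 39 (22.8%), against a background of 37.6%. The wild-type value and its error enter every one of these tests. Since replicates are merged, no exact test over them was possible, and the p-values rest on the deposited errors alone.

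N61, the first residue of the Asn-Gly turn, lost growth with most replacements. Lower scores were called for 14 of 19, and 0 higher, even before adjustment at 0.05. The aromatic residues and proline were lowest: N61Y scored -0.120 ± 0.0111, N61P -0.118 ± 0.0102, N61W -0.117 ± 0.00962 and N61F -0.114 ± 0.0102. These 4 losses lay within their errors of each other and far above the stop level. N61M was highest at 0.0116 ± 0.0101 and was not called. The glycine beside it, G62, tolerated nearly every residue. Only G62P at -0.117 ± 0.0115 and G62I at -0.0468 ± 0.0111 were called lower, and G62D at 0.0318 ± 0.0103 and G62R at 0.0422 ± 0.0152 were called higher, which left 15 of 19 with no call.

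At the aliphatic residue V63, proline stood apart from the other replacements. V63P scored -0.194 ± 0.0106 and was the only one of 19 called lower, while the next lowest, V63W, scored -0.0281 ± 0.0139 and was not called. V63G, V63H, V63I and V63F were called higher, with scores from 0.0356 ± 0.0118 for V63G to 0.102 ± 0.0145 for V63F. At the acidic residue D64 the basic residues were lowest. D64R scored -0.0987 ± 0.0105 and D64K -0.0727 ± 0.0108, followed by the aromatic D64W at -0.0576 ± 0.00969. The acid and amide replacements were not called: D64E had 0.00553 ± 0.0153, D64N 0.00794 ± 0.0109 and D64Q, the highest, 0.0132 ± 0.0137. In all 9 of 19 were called lower and 0 higher, and before adjustment at 0.05 the higher count was 0 too. Proline at this position, D64P, scored -0.0183 ± 0.0106 and was not called.

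L65 held the widest spread of the stretch, with an SD of 0.205 among its 19 substitutions against 0.0201 to 0.0557 at the other 8 positions. Scores under -0.1 were held by 4 of them. L65P scored -0.681 ± 0.0219 and L65D -0.555 ± 0.0151, the members nearest the stop codons. L65W scored -0.256 ± 0.0108 and L65G -0.184 ± 0.0103. Glutamate, which shares its charge with aspartate but is longer by a methylene group, was called lower at only -0.0565 ± 0.00943. The scores of the 2 acidic residues were thus far apart. Several polar and basic residues were not called: L65K scored -0.0110 ± 0.00875, L65S 0.00320 ± 0.00859 and L65N -0.0191 ± 0.00948, none of them called. L65F, L65H, L65M and L65Q were called higher, from 0.0298 ± 0.0104 for L65F to 0.0586 ± 0.0126 for L65Q.

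R66 was the only one of the 50 positions from 51 to 100 at which all 19 singles were called higher than wild type. With an error of 0.0118 added to each score, 14 of the 19 passed, and R66P, R66A, R66L, R66W and R66F did not. The scores ran from 0.0223 ± 0.00913 for R66P to 0.102 ± 0.0119 for R66C, with a median of 0.0485. The residues called higher without the added error included lysine, which keeps the charge (R66K 0.0797 ± 0.0123), and glutamate, which reverses it (R66E 0.0727 ± 0.0108). They also included small and bulky apolar residues (R66A 0.0383 ± 0.00952, R66V 0.0676 ± 0.0104, R66W 0.0407 ± 0.0102). Of these apolar examples only R66V passed with the added error. R66 had the highest mean of the 50. R52, outside the stretch, came near it, with 17 of 19 called higher, 11 with the added error, and a median of 0.0501.

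N67 and A68 showed small shifts in both directions. At N67, 5 substitutions were called lower, between -0.0350 ± 0.0110 (N67F) and -0.0309 ± 0.0114 (N67C), and 5 higher: N67Y, N67E, N67L, N67M and N67T, up to 0.0896 ± 0.0133 for N67T. With the same added error, 0 of these lower calls and 3 of these higher calls passed at N67, and 0 of the 2 higher calls at G62. It left 2 of 4 higher calls at V63 and 10 of 13 at S69, and 11 of 14 lower calls at N61 and 5 of 9 at D64. At L65 it left all 5 lower calls and 3 of 4 higher calls. At A68, A68G at -0.0700 ± 0.0112 and A68N at -0.0328 ± 0.0106 were called lower. The 7 called higher there were A68T, A68C, A68L, A68V, A68I, A68E and A68S, from 0.0311 ± 0.0108 to 0.0528 ± 0.0127. The branched residues valine, isoleucine and threonine were all among them. With the added error 3 of these 7 passed, A68I, A68E and A68S, while A68V and A68T did not. Of the 2 lower calls A68G passed. Proline was not called at either position, with N67P at -0.0139 ± 0.00992 and A68P at 0.00910 ± 0.0107.

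S69, the residue just before H70, had 13 of 19 singles called higher and 1 lower. S69E was the highest member at 0.125 ± 0.0121. Next were the aliphatic substitutions S69V at 0.0815 ± 0.00977, S69I at 0.0792 ± 0.0108, S69M at 0.0780 ± 0.0113 and S69A at 0.0734 ± 0.00998. The other acidic residue, S69D, scored 0.0612 ± 0.0110. The amide S69Q scored 0.0640 ± 0.0111, and its shorter counterpart S69N was the only one called lower, at -0.0465 ± 0.0119. Residues near wild type were S69T at -0.00730 ± 0.0107, S69K at 0.00352 ± 0.0115 and S69H at 0.0160 ± 0.0108. Proline, S69P, scored 0.0228 ± 0.0111 and was not called.

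Proline, which bends the backbone and lacks its hydrogen-bond donor, divided the stretch. It was called lower at N61, G62, V63 and L65, not called at D64, N67, A68 and S69, and called higher at R66. Over the 9 positions its mean was -0.121 and its median -0.0183. At the other residues of 51 to 100 the median of 40 proline substitutions was -0.212, with 31 called lower.

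By mean score the positions ranked R66 (0.0542 ± 0.00248), S69 (0.0445 ± 0.00250), V63 (0.00938 ± 0.00280), A68 (0.00871 ± 0.00270), N67 (0.00639 ± 0.00271), G62 (-0.00851 ± 0.00300), D64 (-0.0246 ± 0.00252), N61 (-0.0552 ± 0.00255) and L65 (-0.0819 ± 0.00259). Of the 8 neighbours in this order, V63 and A68, with an adjusted p of 0.863, and A68 and N67, with 0.622, did not differ beyond their errors. The other 6 did, and R66 and S69 were the closest of them, 0.00966 ± 0.00353 apart with an adjusted p of 0.00817. The order by median score was different. S69 (0.0490) then stood next to R66 (0.0485), with R52, outside the stretch, at 0.0501 the highest of the 50 positions. L65 moved from the lowest place to a median of 0.00105, and N61 became the lowest at -0.0512.

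The mean over all 171 singles was -0.00472 ± 0.00394 relative to wild type. It was 0.00487 ± 0.00395 without L65. By mean score the segments on either side were lower. The mean score of the stretch exceeded that of strand beta4 (residues 56 to 60) by 0.165 ± 0.00198, that of helix alpha2 after the histidine (residues 71 to 79) by 0.125 ± 0.00153, that of H70 by 0.516 ± 0.00572 and that of the other residues of 51 to 100 by 0.0944 ± 0.00108. Each of these 4 differences was over 80 times its propagated error, which covers measurement only and not the spread between positions. Medians lay closer together, at 0.00666 for the stretch, -0.00953 for residues 56 to 60, -0.0219 for residues 71 to 79 and -0.00968 for the other residues, while H70 had -0.507. Effects below -0.1 were held by 10 of 171 singles in the stretch, 28 of 95 at residues 56 to 60 and 61 of 171 at residues 71 to 79. All 19 substitutions of H70 were called lower, where the residue next to it in the chain, S69, had 1.

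The pairs gave a second measurement of each PDZ3 substitution, in sequences that the single scores did not use. For each CRIPT substitution a reference level was taken as the median over the 291 PDZ3 substitutions whose single scores lay within 0.02 of wild type, 66 of them in the stretch. The shift of a pair is its score minus that level. Over the 61 CRIPT substitutions with a reference above -0.1, which are ligands near wild type, the mean shift of each PDZ3 substitution had an error of about 0.004. It was tested against 0 in the same way, over the 947 substitutions. Shifts were higher for 88 of 171 (51.5%, background 32.3%) and lower for 64 (37.4%, background 52.5%). Of the 54 singles called higher, 52 also had a higher shift, and all 39 called lower had a lower shift. Over residues 51 to 100 the same held for 173 of 206 called higher and 351 of 356 called lower. Positions near the C-terminal end weigh on the first of these counts. At S96, R97 and E99, 5, 7 and 6 singles were called higher, of which 0, 2 and 2 also had a higher shift. Across the 171 substitutions, which share the reference levels and the pool, single effect and median shift had a Pearson's r of 0.976 (Spearman's rho 0.906), and r was 0.923 without L65.

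Among the positions of the stretch, R66 and S69 were again the highest in the pairs. At R66 all 19 mean shifts were higher, from 0.0179 ± 0.00335 for R66P to 0.0694 ± 0.00409 for R66V. At S69 16 were higher and 1 lower. Outside the stretch, R52, I75 and A76 each had 17 higher, with 2, 1 and 2 lower. S69E had a mean shift of 0.126 ± 0.00483, the highest of all 947 substitutions, where its single score ranked 10. S69V (0.0980 ± 0.00389) and S69A (0.0892 ± 0.00400) ranked 3 and 4. The low members were low in the pairs too: the mean shift was -0.607 ± 0.01 for L65P, -0.553 ± 0.00696 for L65D, -0.248 ± 0.00439 for L65W, -0.177 ± 0.00418 for L65G and -0.176 ± 0.00436 for V63P.

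A few singles scored otherwise than their pairs. The single effect differed from the mean shift in 8 of 171 substitutions, above it in 7 (4.09%, background 6.76%) and below it in 1, L65P (background 1.8%). Most of the 64 background cases above the shift were at residues 94 to 100, which held 5, 6, 5, 7, 4, 7 and 4 in order. No other position held more than 2, so the stretch is not read as lower than the rest. V63F scored 0.102 with wild-type CRIPT but shifted pairs by 0.0246 ± 0.00438 (adjusted p of the difference 5.4e-05). N67T scored 0.0896 against a shift of 0.0164 ± 0.00417 (adjusted p of the difference 3e-05). R66H and R66C, at 0.0930 and 0.102, had shifts of 0.0445 ± 0.00418 and 0.0582 ± 0.00427, so the 2 highest R66 singles were not the highest R66 shifts. G62R scored 0.0422 and shifted pairs by -0.0118 ± 0.00500, the only member with calls in opposite directions. S69C (0.0490 against 0.00914 ± 0.00464) and D64Q (0.0132 against -0.0354 ± 0.00444) made up the rest. For these 8 substitutions the size of the change therefore depends on which measure is read.

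The median shift of a PDZ3 position had the same sign at all 8 CRIPT positions for every position of the stretch except L65 and N67. The median shift of R66 pairs was between 0.0406 with T6 substitutions and 0.0587 with K4 substitutions, and that of S69 pairs between 0.0326 with V8 and 0.0508 with K4. For N61 it was between -0.0632 with K4 and -0.0449 with N2. The other 6 positions had medians between -0.0291 and 0.0238 at every CRIPT position. With S69E all 114 pairs with K1, N2, Y3, K4, Q5 and S7 substitutions lay above the reference, with mean shifts of 0.119 to 0.143 per CRIPT position, and 96 of them were called above it. At T6 and V8, whose median reference levels of -0.727 and -0.737 lie near the stop level, 16 of 18 and 15 of 18 S69E pairs lay above the reference, with mean shifts of 0.0986 and 0.106, and 4 and 5 of them were called.

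The same 7 positions also kept 1 sign of the median shift across weaker ligands. Reference levels fell between -0.5 and -0.1 for 54 CRIPT substitutions and under -0.5 for 36. R66 pairs had median shifts of 0.0514 with ligands near wild type, 0.0558 with the intermediate and 0.0416 with the low group. For S69 they were 0.0442, 0.0513 and 0.0357, and for N61 -0.0476, -0.0587 and -0.0522. At G62, V63, D64 and A68 the medians were smaller, between -0.0304 and 0.0152. The lowest members had smaller shifts with the low group: the median shift of L65D was -0.545 with ligands near wild type and -0.223 with the low group, and that of L65P was -0.614 and -0.169. The median scores of their pairs with the low group, -0.934 for L65D and -0.871 for L65P, lay below the median of the stop codons in the stretch, -0.826. The value for L65P was inside the range of those stop codons, -0.874 to -0.784. Of the 36 low ligands, only 26 were listed with L65D and 21 with L65P, so these medians and shifts rest on incomplete sets.

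Pair by pair, 1067 members (4.16%) scored above the reference level of their CRIPT substitution at an adjusted p under 0.05, against a background of 1.88% over 135850 pairs, and 1508 (5.88%) below it, against 17.4%. S69 held 473 of those above and R66 316, while 558 of those below were at N61 and 476 at L65. At R66 0 of 2862 pairs were called below, with 1 at an unadjusted p under 0.05, and 88.8% lay above the reference. Compared with the CRIPT single as listed, 2506 pairs (9.77%) were above (background 6.29%) and 1775 (6.92%) below (background 18.3%). Of these 2506, 1251 had a T6 or V8 substitution, and 137 T6 or V8 pairs were above the reference. The listed single minus the reference reached -0.524 at T6 and -0.542 at V8, so gains over the listed single at T6 and V8 are not read as effects of the stretch. The pair V63W with T6P shows the size of this: it scored -0.449 ± 0.121, above the listed T6P by 0.867 and above its reference by 0.343 ± 0.121.

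Some pairs grew better than the wild-type complex. Scores higher than wild type were called for 836 pairs (3.26%), against a background of 1.92%, and lower for 17706 (69.1%), against 74.2%. S69 gave 225 and R66 210 of the 836, and 627 carried an N2 or Q5 substitution. Called higher were 430 of 3248 N2 pairs and 197 of 3247 Q5 pairs. Some of these ligands had reference levels above wild type. Q5E, at 0.138, had 159 of its 171 pairs called, and N2K, at 0.0575, 74 of 170. How much of these counts came from the ligand change was not tested. The highest was S69V with Q5E at 0.248 ± 0.0291, where S69V alone scored 0.0815 and Q5E alone 0.127 ± 0.0043. S69E gave the highest pair at 5 of the 8 CRIPT positions, for example 0.198 ± 0.0556 with N2K, 0.193 ± 0.0406 with Y3W and 0.141 ± 0.0339 with K4R. The highest pairs with T6 and V8 substitutions, S69E with T6S at 0.0143 ± 0.0408 and S69A with V8C at 0.0457 ± 0.0335, were not called.

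Pairs were last compared with an isotonic curve of pair score on the sum of both single effects, to ask whether the stretch and the ligand depend on each other. Above the curve lay 199 of 25637 pairs (0.776%, background 0.666%) and below it 32 (0.125%, background 0.149%). Of these 231 pairs, 208 had a substitution at CRIPT S7, and all 208 came from 3 of them: 142 from S7N, 39 from S7D and 27 from S7T. The listed singles of these 3 differed from their levels over near-neutral PDZ3 backgrounds. S7N was listed at -0.493 against -0.287, S7D at -0.603 against -0.455 and S7T at 0.0478 against -0.0672. With the reference level in place of the listed single, 0 of the S7 pairs and 8 pairs in all were off the curve, 7 above and 1 below. The share of R66 pairs with S7 off the curve, 8.03%, ranked 2 among all position pairs of residues 51 to 100, after H70 with T6 at 29.0%, and it was 0% once the median deviation of each PDZ3 and each CRIPT substitution was removed. N61 with S7 was close behind at 7.76%. Over all S7 pairs the share was 6.40% in the stretch and 4.78% in the listing.

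After removal of the medians, 2 pairs remained above the curve (0.0078%, under the background of 0.0788%) and 0 below (background 0%, with 220 at an unadjusted p under 0.05). Both joined S69 to the ligand threonine T6, but with different residues. S69G with T6N scored -0.462 ± 0.0651, where the T6N reference was -0.759, and S69D with T6R scored -0.432 ± 0.0660, where the T6R reference was -0.763. Their adjusted p-values were 0.0258 and 0.0362 here, and over the other settings they ran from 8.8e-09 to 0.031 and from 1.9e-05 to 0.0365. Their errors were larger than those of most pairs (the median error was 0.0375), and the subset with the lower 50% of errors did not hold them.

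A finer test averaged the deviations after median removal over the substitutions of 1 CRIPT position. Of 1368 such means for the stretch, 2 were above 0 (0.146%, under the background of 0.409%) and 0 below (background 0.0132%, with 31 at an unadjusted p under 0.05). They were L65W with N2 substitutions, at 0.0296 ± 0.00755 with an adjusted p of 0.0246, and L65G with K1 substitutions, at 0.0325 ± 0.00798 with an adjusted p of 0.0162, both small against their own shifts of -0.236 and -0.173 with those ligands. The neighbouring H70 had 10 of 152 means above 0. The difference between those counts was not tested.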

How the data were processed

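Amplicon sequencing of input and output yeast cultures was used by the authors to make the deposited fitness score and its error (also in score units) for each amino acid sequence. FastQC and cutadapt are named per the submitters' processing notes. The scoring tool, log base, count filter and kind of error are not given in the sources used here. The table lists PDZ3 residues 51 to 100 apart from residues 1 to 50, and only the former listing, with 142251 sequences, was used. Which block it came from is not stated. Reads of 1 input sample of 1 block also served a CRIPT library as technical replicates, per the labels. The 3 CRIPT-only tables hold no change in the stretch and were not used. The wild-type control samples were not analysed here.

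Computed here with Python 3.11.15, scipy 1.17.1 and scikit-learn 1.9.0 were differences with combined errors, normal p-values, Benjamini-Hochberg adjustment over the whole listing, and an isotonic curve over 135850 pairs. A PDZ3 single that was not listed (45 pairs, none in the stretch) took the median of pair minus partner. CRIPT T6A had 0 pairs. Reference levels carry no error in these tests. The tests were checked on simulated data with noise drawn from the deposited errors. Such a check cannot show whether those errors are too small. Single scores of CRIPT substitutions carry the limits named in the text.

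Named members were, per position, the highest, lowest and proline singles and up to 5 called higher, and, for pairs, those farthest from the curve, with the largest gain or the highest score. A few more are named for comparison. Members, lists and tests were chosen with earlier results of these data known. The mean shifts and the means per CRIPT position were added after the scores had been seen. No values per replicate were used, so p-values cover the authors' error alone.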

Additional observations from a re-analysis of the deposited data

How the results depend on the processing

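Among singles called higher, 54 in the report, an error of 0.0118 added to each score left 35. That error came from CRIPT singles present in both listings, and with it lower calls went from 39 to 26. The mean shift over ligands near wild type gave 88 higher calls, and lower calls went from 39 to 64. The other alternatives kept both counts within 1.5 times. Among them, the lower 50% of errors kept all 171 singles, so for singles it changed only the p-value adjustment. Pairs above the curve, 199 in the report, numbered 2 with median removal, 7 with the CRIPT reference, 49 among the lower 50% of errors and 1218 with a plain sum. Pairs below it, 32 in the report, numbered 0 with median removal, 1 with the reference, 3 with the added error, 15 at a threshold of 0.01, 141 with the product above the stop level and 221 with a plain sum. Pairs above the CRIPT single, 2506 in the report, numbered 1067 with the reference, 1090 with a reference from backgrounds outside the stretch, 937 among the lower 50% of errors and 1537 at 0.01. The mean effect, -0.00472, turned to 0.00717 as a median and to 0.00487 without L65, and it was -0.00523 and past the threshold against 0, which drops the wild-type error. The cause of the other changes was not tested. The depth behind the scores is unknown. No paired analysis was possible because the table merges the replicates, and leaving out a replicate could not be run for the same reason.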
